A study of Xenopus laevis with 6 samples.

Results

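The genes described here encode the machinery that forms, moves and fuses transport vesicles between the endoplasmic reticulum (ER), the Golgi and the cell surface: vesicle coats, cargo receptors, SNAREs, tethers and Rab GTPases. They were chosen by name. A gene was taken when its platform symbol, in lower case and without the ending for its chromosome copy, began with rab, arf, tmed, vamp or snap and a digit, with sar1, stx, trapp, golg, bet1, gosr, ykt6, lman, mia3, kdelr or surf4, with sec13, sec16, sec22, sec23, sec24 or sec31, or was a coatomer subunit symbol from copa to copz2. This gave 116 of the 7531 genes measured by a probe set with a single gene symbol. Each gene was read from its brightest probe set, and 23 of the 116 had more than 1. Xenopus laevis is allotetraploid, so many genes exist as a long (L) and a short (S) chromosome copy. Of the members, 65 were L copies, 50 were S copies and stx18 carried no ending, and together they covered 98 gene names. Because the choice went by name, it also took in rab5if, which is no Rab GTPase, and snap91, an endocytic clathrin adaptor.

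The samples were pancreas, liver and stomach buds dissected from Xenopus laevis tadpoles of mixed sex at stage 42, after the dorsal and ventral pancreatic buds have fused. No genotype, transgene or treatment is given for any group. Each bud was isolated on 2 independent occasions and measured on 1 Affymetrix array per isolation, so that every value below rests on 2 arrays per bud and 6 in all. The buds held mesoderm as well as endoderm, and no source used here says how many tadpoles were pooled per sample. The series set out to find genes that set the embryonic pancreas apart from its neighbours.

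Secretory proteins enter the ER and leave it in vesicles coated with COPII, which the GTPase Sar1 starts and the Sec23, Sec24, Sec13 and Sec31 subunits complete. COPI coats, recruited by Arf GTPases, bring escaped ER proteins and receptors back from the Golgi. Cargo receptors such as the tmed, lman and kdelr proteins choose what is carried. Tethers and Rab GTPases then bring a vesicle to the right membrane, and SNAREs on both sides zip together and fuse it. Acinar cells of the pancreas and hepatocytes are textbook secretory cells, the first storing enzymes in zymogen granules and the second releasing plasma proteins without storage.

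Intensities were linear values with a median of 100 on every array. Correlations of log2 intensity lay between 0.946 and 0.955 for arrays of the same bud and between 0.850 and 0.904 for arrays of different buds. Summed marker intensities followed the labels: 16 exocrine markers reached 105590 and 70473 in pancreas buds, against 522 and 779 in liver buds and 4226 and 5408 in stomach buds. Hepatocyte markers, 15 in number, summed to 3188 and 1509 in pancreas buds, to 90231 and 68692 in liver buds, and to 10518 and 8167 in stomach buds. Gastric epithelium markers (4 genes) reached 48.0 and 490 in pancreas buds, 63.7 and 50.1 in liver buds, and 12584 and 7181 in stomach buds. In pancreas buds all 4 were higher in replicate 2 than in replicate 1, and what this reflects was not tested. No marker was listed at 0, and 3 of them (cela3b.L, nefl.L and hbg1.L) were below 16 on every array. These are whole buds, so that fewer cells of a type and less RNA per cell cannot be told apart.

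The median ratio of the highest to the lowest bud mean was 1.58 for the vesicle traffic genes and 1.60 for all genes. Large differences were less common among the members in both comparisons with the pancreas. Probe intensity gives no order of abundance between genes, but it sets how well a difference can be seen: the median of the members' mean intensities was 297, against 162 over all genes, with 17 members above 1000 and 3 below 16. On the log2 scale the residual SD had a median of 0.23 for the members, against 0.29 for all 15491 probe sets. For the residual SD the members were read from their brightest probe sets and the rest were not, so the SD medians are not like for like. In 51 members (44.0%) the highest bud mean was less than 1.5 times the lowest, as in 42.3% of all genes. A ratio of 3 or more was found in 15 members (12.9%), against 16.8% of all genes. Between pancreas and liver buds, 12.07% of the members differed by over 2-fold, against 18.09% of all genes. For pancreas and stomach buds these shares were 11.21% and 20.42%, and for liver and stomach buds 20.69% and 20.95%. The bud with the highest mean was the pancreas for 34 members, the liver for 57 and the stomach for 25. Over all genes those shares were 39.5%, 31.6% and 29.0%, while for the members they were 29.3%, 49.1% and 21.6%. The stomach bud had the lowest mean for 60 members (51.7%), against 39.6% of all genes.

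In the comparison of pancreas with liver buds, which asks what separates the 2 glands, 3 of 116 members were higher in the pancreas and 2 were lower by limma with a Benjamini-Hochberg adjusted p under 0.05. Those shares of 2.59% and 1.72% stood beside 3.27% and 3.96% of all 7531 genes. The 3 higher members were the SNARE regulator stxbp6.L and the Rab GTPases rab27a.S and rab40b.L. The 2 lower ones were the cargo receptor tmed10l.L and the endosomal rab22a.L. Both pancreas arrays lay above both liver arrays for 29 members (25%) and below them for 39 (33.6%), while over all genes the shares were 33.2% and 25.2%. The median log2 difference, pancreas minus liver, was -0.06 for the members and 0.07 for all genes, and between same-numbered arrays the members' median was -0.07 for number 1 and -0.02 for number 2. Leaving out any single one of the 6 arrays gave 1 or 2 higher and 0 or 1 lower.

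Against stomach buds, 5 members were higher in pancreas buds and 3 were lower (4.31% and 2.59%), beside 4.41% and 4.9% of all genes. Higher were the COPII coat gene sec31b.L, its partner sec23ip.S, the cargo receptor lman1.S, stxbp6.L and rab5if.L. Lower were the Rab GTPases rab22a.L, rab25.L and rab27a.L. Both pancreas arrays exceeded both stomach arrays for 41 members (35.3%) and lay under both for 26 (22.4%), and over all genes this held for 36.9% and 25.1%. The median log2 difference, pancreas minus stomach, was 0.14 for the members and 0.12 for all genes, with 0.05 and 0.22 for the members between arrays numbered 1 and 2. Without 1 array the counts ran between 0 and 4 higher and between 0 and 2 lower; the lowest counts, 0 in both directions, came without pancreas replicate 1 or stomach replicate 1.

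Liver against stomach buds gave the most calls: 7 members were higher in liver buds and 7 were lower (6.03% each), beside 5.84% and 5.36% of all genes. The higher ones were 2 COPII coat genes (sec24a.S, sec31b.L), sec23ip.S, the cargo receptor tmed10l.L, the SNAREs bet1.L and sec22b.L, and stxbp6.L. The lower ones were 6 Rab GTPases (rab24.L, rab25.L, rab27a.L, rab27a.S, rab3a.L, rab40b.L) and the SNARE vamp2.L. Both liver arrays were above both stomach arrays for 55 members (47.4%) and below both for 21 (18.1%), while over all genes the shares were 30.1% and 27.2%. The median log2 difference, liver minus stomach, was 0.25 for the members and 0.04 for all genes, and the members' median was 0.30 and 0.25 between arrays numbered 1 and 2. Without 1 array, between 0 and 3 members were called higher and between 1 and 5 lower; none was higher without liver replicate 1 or without stomach replicate 2.

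In all, 17 members were called in at least 1 pair of buds and 99 in none, a count for which no share over all genes is given. A moderated F test among the 3 buds called 15 members (12.9%), beside 14.8% of all genes, and between 3 and 9 members with any single array left out. Unadjusted p values under 0.05 were found for 25.9%, 25% and 34.5% of the members in the pancreas-liver, pancreas-stomach and liver-stomach comparisons, beside 26.6%, 28.7% and 25.9% of all genes. The 3 comparisons share arrays, and so their counts are not independent of each other.

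**Figure D1:**
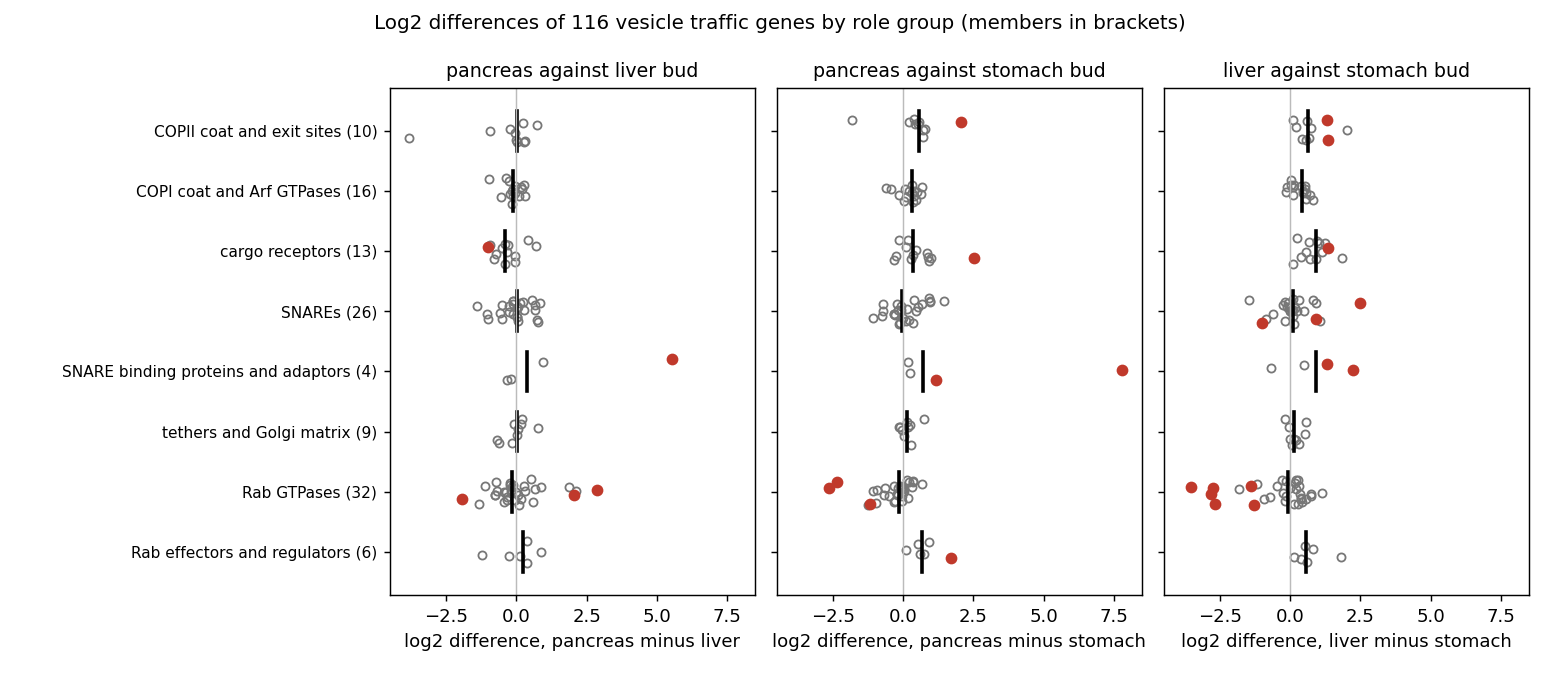
Log2 differences between bud means for the 116 vesicle traffic genes, in 3 panels (pancreas minus liver, pancreas minus stomach, liver minus stomach), with 1 circle per gene and 1 row per role group. Filled red circles are genes called by limma (adjusted p under 0.05), open circles are the others and black bars are group medians; the 10 COPII genes all lie right of 0 in the liver-stomach panel, while the called Rab GTPases there lie left of it.

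Most COPII genes had a higher mean in both glands than in the stomach bud, but few passed the test. All 10 had a higher mean in liver than in stomach buds (median log2 difference 0.63) and 9 of 10 in pancreas than in stomach buds (median 0.55), with 2 and 1 of them called, beside 5.84% and 4.41% of all genes; the exception in the pancreas was sar1b.L. Between pancreas and liver buds the median log2 difference was 0.01, none was called, and centring on bright probe sets turned that median to -0.05. The 2 called genes are parts of the coat itself. Over all genes the medians were 0.04, 0.12 and 0.07 in the same order.

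The gene sec31b.L encodes an outer-cage subunit of the COPII coat. It had intensities of 228 and 250 in pancreas buds, 143 and 143 in liver buds, and 53.4 and 62.0 in stomach buds. The 3 buds did not overlap, and the pancreas arrays were the highest. The fold was 4.15 for pancreas over stomach (log2 2.05, SE 0.193, limma adjusted p = 0.0115), 2.48 for liver over stomach (adjusted p = 0.0204) and 1.67 for pancreas over liver (adjusted p = 0.0967, not called). When each array was left out in turn, the pancreas-stomach call was kept in 2 of 6 fits and the liver-stomach call in 0 of 6. The fits that kept the pancreas-stomach call were those without a liver array, which left that difference itself unchanged. Each count of 6 fits below likewise includes fits without an array of the third bud. The S copy of sec31b had 73.4 and 49.3 in pancreas buds, 50.7 and 47.2 in liver buds, and 33.9 and 40.4 in stomach buds, in the same order, and was not called.

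A cargo-binding subunit of the inner coat, sec24a.S, was highest in the liver bud. It measured 98.7 and 117 in pancreas buds, 185 and 229 in liver buds, and 74.1 and 89.5 in stomach buds. Both liver arrays lay above the other 4. The liver-over-stomach fold was 2.52 (log2 1.34, SE 0.232, limma adjusted p = 0.0307), a call kept in 0 of 6 fits without 1 array; the adjusted p was 0.0882 between pancreas and liver buds, where the pancreas mean was 1.91 times lower.

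Among uncalled COPII genes the brightest were sar1a.S, sec13.S and sec23b.L. The GTPase gene sar1a.S, whose product starts the coat, had 1719 and 1487 in pancreas buds, 1721 and 1411 in liver buds, and 983 and 972 in stomach buds. Pancreas and liver arrays overlapped and all 4 exceeded the stomach arrays, but the adjusted p was 0.111 for pancreas against stomach and 0.127 for liver against stomach. A second probe set of sar1a.S differed, with 173 and 121 in pancreas buds, 340 and 298 in liver buds, and 196 and 130 in stomach buds, so that pancreas and stomach overlapped. The outer-coat gene sec13.S showed the same order with 1851 and 1414, 1498 and 1278, and 1023 and 875 in pancreas, liver and stomach buds, and sec23b.L had 681 and 771, 764 and 720, and 510 and 473. Neither was called (lowest adjusted p = 0.120 and 0.137). The other SAR1 paralogue ran differently: sar1b.L, linked in humans to the export of chylomicrons, had 1.77 and 9.92 in pancreas buds, 79.1 and 45.4 in liver buds, and 19.6 and 11.04 in stomach buds. Both liver arrays were above the other 4, yet the spread at these low intensities was wide, and the pancreas-liver difference of -3.84 (log2, SE 0.872) was not called (limma adjusted p = 0.0733). With 16 added to every intensity that pancreas-liver ratio was 3.56 times lower rather than 14.3 times.

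The binding partner of Sec23 at ER exit sites, sec23ip.S, was called in the same comparisons as sec31b.L. It had 141 and 142 in pancreas buds, 156 and 164 in liver buds, and 60.2 and 67.7 in stomach buds. Pancreas and liver buds differed by 1.13 times and both were clear of the stomach arrays. Pancreas over stomach was 2.22 (log2 1.15, SE 0.186, limma adjusted p = 0.0316; kept in 0 of 6 fits without 1 array) and liver over stomach was 2.51 (adjusted p = 0.0189; kept in 2 of 6).

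The COPI coat showed the same order without a single call. The 8 coatomer genes measured (copa.L, copb1.L, copb2.S, cope.S, copg1.L, copg2.S, copz1.L and copz1.S) each had a higher mean in pancreas than in stomach buds and in liver than in stomach buds, also under quantile normalization, centring and with 16 added. The differences were small, with a median of 0.41 (log2, range 0.31 to 0.67) for pancreas minus stomach and 0.55 (range 0.04 to 0.80) for liver minus stomach. The lowest limma adjusted p was 0.124 and 0.0817. Over all genes, 4.41% and 5.84% were called higher in these comparisons. Both arrays were above both stomach arrays for 6 of the 8 in pancreas buds and for 7 of the 8 in liver buds, beside 36.9% and 30.1% of all genes. Between pancreas and liver buds the median was -0.12, and 2 of 8 were higher in the pancreas.

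Single coatomer genes show how narrow the gaps were. The beta-prime subunit gene copb2.S, the brightest of the COPI group, had 2489 and 2165 in pancreas buds, 2798 and 2371 in liver buds, and 2074 and 1658 in stomach buds, with the liver 1.39 times above the stomach (adjusted p = 0.286). The epsilon subunit gene cope.S reached 1696 and 1559 in pancreas buds, 2145 and 2084 in liver buds, and 1259 and 1313 in stomach buds, and its liver-over-stomach fold of 1.64 had the lowest p of the group. No arrays of different buds overlapped for cope.S. The zeta subunit gene copz1.S was the most different, 1.59 times higher in pancreas than in stomach buds (adjusted p = 0.128) and 1.74 times higher in liver than in stomach buds (adjusted p = 0.0890).

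Arf GTPases, which recruit COPI to the Golgi, had small median differences. Their 8 genes had a median log2 difference of -0.11 for pancreas minus liver, 0.05 for pancreas minus stomach and 0.10 for liver minus stomach. None was called, beside 3.27% to 5.84% of all genes per direction and pair. Both copies of arf4 varied little: arf4.S had 2233 and 2559 in pancreas buds, 2154 and 2002 in liver buds, and 2412 and 2162 in stomach buds, and arf4.L had 2021 and 1627, 2036 and 1713, and 1952 and 1482. The liver arrays of arf4.S were the lowest, and its pancreas and stomach arrays overlapped, as did all buds for arf4.L. The log2 differences had standard errors of 0.196 for arf4.S and 0.249 for arf4.L. The endocytic arf6.2.L was lower in pancreas than in liver buds by 1.96 times in its brightest probe set (211 and 233 against 398 and 474, adjusted p = 0.115); another probe set of the gene, at 54.9 and 65.5 against 128 and 146, passed the test (limma adjusted p = 0.0391).

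**Figure D2:**
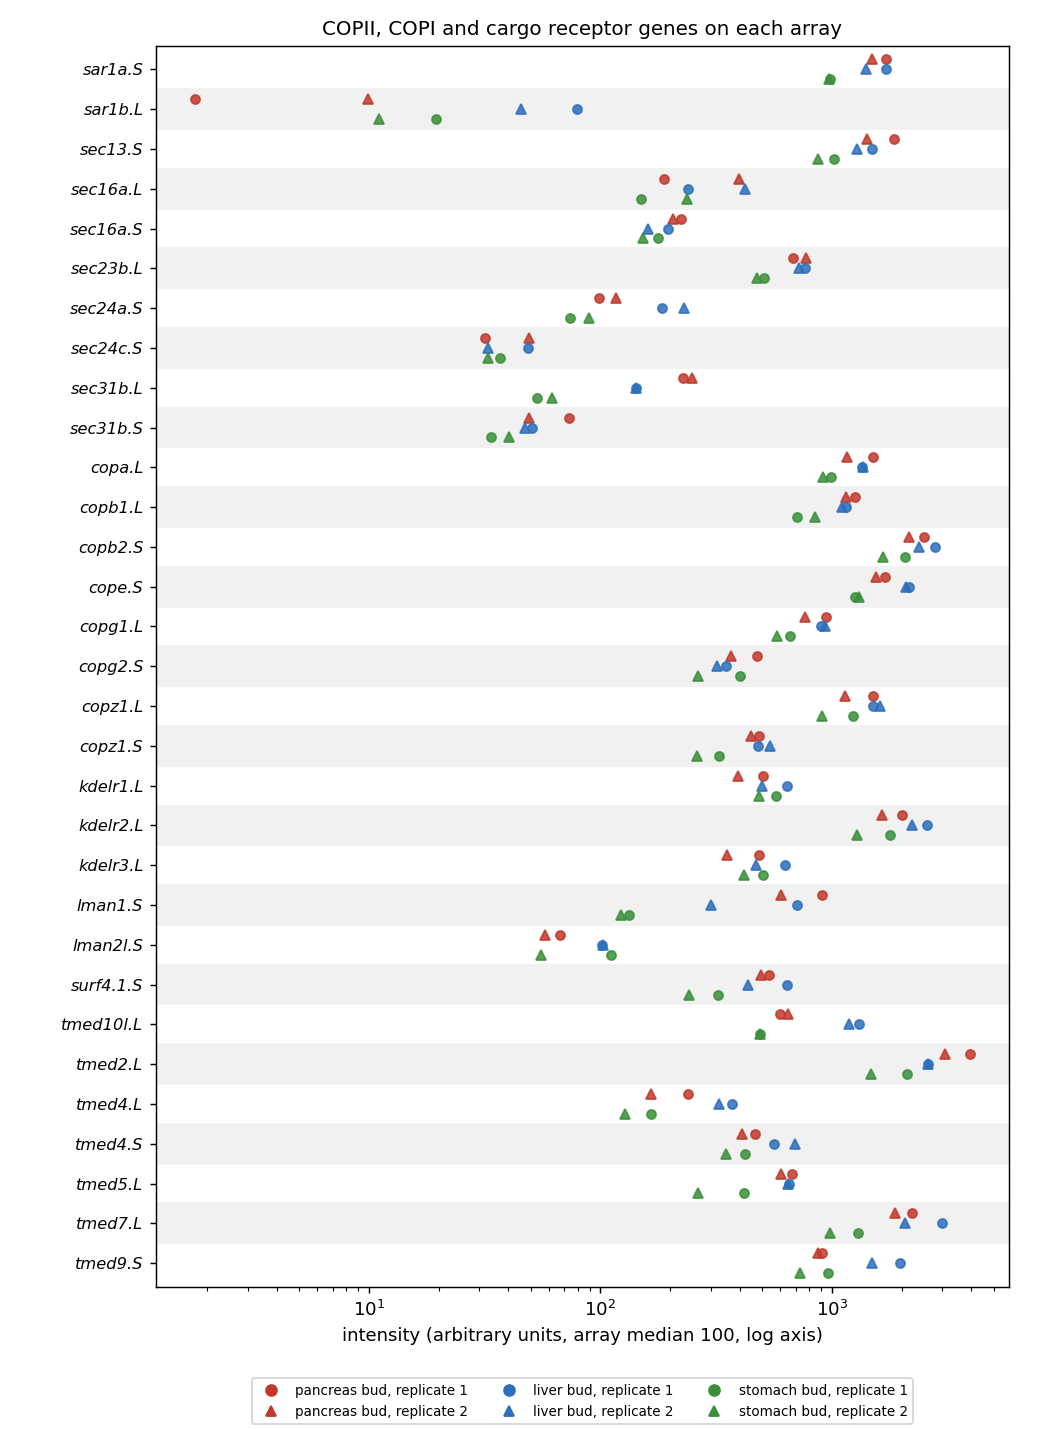
Intensity (arbitrary units, log axis) of the COPII, COPI coatomer and cargo receptor genes on each of the 6 arrays, with red for pancreas, blue for liver and green for stomach buds, circles for replicate 1 and triangles for replicate 2. In most genes the green points lie furthest left; sar1b.L, with pancreas arrays at 1.77 and 9.92, is the clearest exception.

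Cargo receptors differed most between liver and stomach buds. All 13 had a higher mean in the liver bud (median log2 difference 0.91, also 13 of 13 under quantile normalization, centring and with 16 added), and for 10 of them both liver arrays exceeded both stomach arrays (30.1% of all genes), although only tmed10l.L was called (5.84% of all genes). For pancreas minus stomach the median was 0.34, with 10 of 13 above 0 (9 under quantile normalization) and lman1.S called higher (4.41% of all genes). For pancreas minus liver it was -0.40, with 2 of 13 above 0 and tmed10l.L called lower (3.96% of all genes). Of all 7531 genes, 3999 were above 0 for liver minus stomach, 4310 for pancreas minus stomach and 4127 for pancreas minus liver. Hepatocyte marker sums are those given above, highest in the liver bud, and their part in the cargo receptor differences was not tested. Erythrocyte markers, 11 in number, were also highest there, at 12364 and 12841 in pancreas buds, 41917 and 46249 in liver buds, and 8397 and 9345 in stomach buds, and their part was not tested either.

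The tmed genes encode small transmembrane proteins that cycle between ER and Golgi and load cargo into coated vesicles. For all 7 both liver arrays were above both stomach arrays, as for 30.1% of all genes. The median log2 difference was 1.04 (range 0.57 to 1.35), beside 0.04 over all genes. The strongest, tmed10l.L, had 598 and 645 in pancreas buds, 1304 and 1192 in liver buds, and 490 and 491 in stomach buds. The liver arrays were the highest, and the pancreas arrays lay above the stomach ones. Liver over stomach was 2.54 (log2 1.35, SE 0.184, limma adjusted p = 0.0177; kept in 2 of 6 fits without 1 array). The pancreas bud was 2.01 times lower than the liver bud (log2 -1.005, SE 0.184, adjusted p = 0.0456; kept in 0 of 6), and with the replicate number as a block that adjusted p was 0.0529, within a range of 0.00510 to 0.197 over all alternatives.

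Other tmed genes followed without passing the test. The brightest, tmed2.L, had 3954 and 3073 in pancreas buds, 2613 and 2606 in liver buds, and 2112 and 1473 in stomach buds, and was the only tmed gene with its highest mean in the pancreas (pancreas over stomach 1.98, adjusted p = 0.0942). For tmed7.L the intensities were 2227 and 1870 in pancreas buds, 3006 and 2071 in liver buds, and 1295 and 985 in stomach buds (liver over stomach 2.21, adjusted p = 0.0773). For tmed9.S they were 904 and 875 in pancreas buds, 1979 and 1494 in liver buds, and 961 and 731 in stomach buds, so that pancreas and stomach overlapped. Its adjusted p was 0.0716 for liver against stomach and 0.0980 for pancreas against liver. The liver-over-stomach fold of tmed4.L, 2.39, came closest to a call among the rest (adjusted p = 0.0546).

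The lectin lman1 carries glycoproteins out of the ER, in humans including coagulation factors. In pancreas buds lman1.S had 907 and 606, against 707 and 300 in liver buds and 133 and 123 in stomach buds. Pancreas and liver arrays overlapped, and all 4 stood well above the stomach arrays. The pancreas-over-stomach fold was 5.79 (log2 2.53, SE 0.462, limma adjusted p = 0.0406; kept in 2 of 6 fits without 1 array). A liver-over-stomach fold of 3.59 was not called (SE 0.462, adjusted p = 0.0790). Receptors that retrieve ER proteins were flatter: the 3 kdelr genes had median log2 differences of -0.40 for pancreas minus liver, -0.14 for pancreas minus stomach and 0.25 for liver minus stomach, with none called. The brightest, kdelr2.L, had 2000 and 1653 in pancreas buds, 2585 and 2226 in liver buds, and 1790 and 1289 in stomach buds.

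SNAREs, the fusion proteins, had no common direction. Of 26 genes, 2 were called higher and 1 lower in liver than in stomach buds, beside 5.84% and 5.36% of all genes. None was called in either comparison with the pancreas, where between 3.27% and 4.9% of all genes were called in each direction. Their median log2 differences were 0.01 for pancreas minus liver (-0.02 under quantile normalization and -0.05 after centring), -0.05 for pancreas minus stomach and 0.09 for liver minus stomach. The 2 higher ones act between ER and Golgi and the lower one is the synaptobrevin of synaptic vesicles.

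Bet1 is a SNARE of ER-derived vesicles, and bet1.L showed the largest SNARE difference among those called. It had 126 and 90.7 in pancreas buds, 217 and 215 in liver buds, and 49.8 and 30.2 in stomach buds. The 3 buds did not overlap and stood in the order liver, pancreas, stomach. Liver over stomach was 5.57 (log2 2.48, SE 0.322, limma adjusted p = 0.0157; kept in 3 of 6 fits without 1 array), and pancreas over stomach was 2.75 but not called (adjusted p = 0.0605). Its partner in that step, sec22b.L, had 370 and 338 in pancreas buds, 558 and 494 in liver buds, and 291 and 264 in stomach buds, again without overlap. The liver-over-stomach fold of 1.90 (log2 0.92, SE 0.194) passed narrowly (adjusted p = 0.0497, kept in 0 of 6). The S copies of both genes were not called in any pair. The brighter copy bet1.S had means of 347, 315 and 181 in pancreas, liver and stomach buds, highest in the pancreas. Its liver-minus-stomach log2 difference was 0.81. For sec22b.S the means were 39.7, 42.1 and 36.1 in the same order, with a liver-minus-stomach log2 difference of 0.24.

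The neuronal and secretory-granule SNARE gene vamp2.L ran the other way. It had 79.2 and 68.2 in pancreas buds, 42.9 and 46.3 in liver buds, and 89.1 and 90.6 in stomach buds. Liver arrays were lowest, and the pancreas arrays lay between. The liver bud was 2.02 times lower than the stomach bud (log2 -1.01, SE 0.192, limma adjusted p = 0.0386; kept in 0 of 6 fits without 1 array). The call was lost in the mean of both probe sets of the gene (adjusted p = 0.102, in a range of 0.0265 to 0.153 over all alternatives), and the second probe set alone had an adjusted p of 0.259. Its S copy had 109 and 90.1 in pancreas buds, 65.2 and 61.1 in liver buds, and 115 and 116 in stomach buds, with an adjusted p of 0.0600 for liver against stomach. The brightest probe sets of all 4 vamp genes had their highest mean in the stomach bud, whereas a second probe set of vamp1.L, at 39.5 and 61.4 in pancreas buds, 112 and 71.0 in liver buds, and 36.2 and 42.9 in stomach buds, was highest in the liver, as was by a small margin that of vamp2.S. Marker genes of neurons, 16 in number and none of them a member, summed to 956 and 969 in pancreas buds, 929 and 1026 in liver buds, and 3917 and 2984 in stomach buds, and their part in the vamp2.L difference was not tested. Of these markers 4 were called lower in pancreas than in stomach buds and 4 lower in liver than in stomach buds. Over all genes those shares were 4.9% and 5.36%. The marker syt1.L alone gave 1830 and 1288 of the stomach sums.

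The brightest uncalled SNAREs were ykt6.S, snap29.L and ykt6.L, fusion proteins of the Golgi and of endosomes and autophagosomes. The S copy of ykt6 had 720 and 541 in pancreas buds, 425 and 415 in liver buds, and 435 and 481 in stomach buds, and the L copy had 569 and 619, 418 and 341, and 432 and 326. For both copies the pancreas arrays were the highest, with adjusted p values of 0.206 and 0.186 against the liver. By contrast snap29.L was near level, at 445 and 398, 466 and 457, and 538 and 422. The endosomal stx7.L was 2.09 times lower in pancreas than in liver buds and 2.10 times lower than in stomach buds, at 64.7 and 49.7 against 115 and 122 and against 137 and 104. Neither was called (adjusted p = 0.0759 and 0.0667). For stx19.S the brightest of 4 probe sets was near level, at 177 and 145 in pancreas buds against 178 and 148 in stomach buds, while 2 others were called lower in the pancreas; 1 of them read 62.6 and 67.0 against 176 and 168 (limma adjusted p = 0.0354).

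The largest difference of the whole set belonged to stxbp6.L, which encodes amisyn, a syntaxin-binding protein that hinders SNARE assembly in mammalian cells. It had 2125 and 2059 in pancreas buds, against 64.6 and 30.6 in liver buds and 9.46 and 9.21 in stomach buds. The pancreas arrays were far above all others, and the stomach arrays were near the bottom of the intensity scale. Pancreas over liver was 47.0 (log2 5.56, SE 0.380, limma adjusted p = 0.00615), and this call was kept in all 6 fits without 1 array. Pancreas over stomach was 224 (log2 7.81, adjusted p = 0.00610; kept in 4 of 6). A ratio against intensities under 10 depends on the floor: with 16 added to every intensity it was 83.2. Liver over stomach was 4.77 (adjusted p = 0.0285; kept in 1 of 6), or 2.42 with 16 added. Exocrine marker sums, given above, were also highest in pancreas buds. The 13 endocrine markers summed to 11140 and 10089 in pancreas buds, 455 and 513 in liver buds, and 2302 and 1480 in stomach buds, most of it from both insulin copies: ins.S had 5865 and 5417 in pancreas buds. Of these 13, 3 were called higher and 1 lower in pancreas than in stomach buds, beside 4.41% and 4.9% of all genes. The genes sst.1.L, gcg.L, pax6.L, scg5.L and both chga copies had their highest means in the stomach. Which cells of the bud carry stxbp6.L was not tested. The other syntaxin-binding gene, stxbp3.L, had 99.4 and 108 in pancreas buds, 118 and 142 in liver buds, and 81.4 and 104 in stomach buds, and was not called.

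The clathrin adaptor gene snap91.S, known from synaptic vesicle recycling, had 60.8 and 52.9 in pancreas buds, 28.1 and 31.1 in liver buds, and 46.0 and 49.7 in stomach buds. The liver arrays were lowest, and the pancreas-over-liver fold of 1.92 had an adjusted p of 0.0615.

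**Figure D3:**
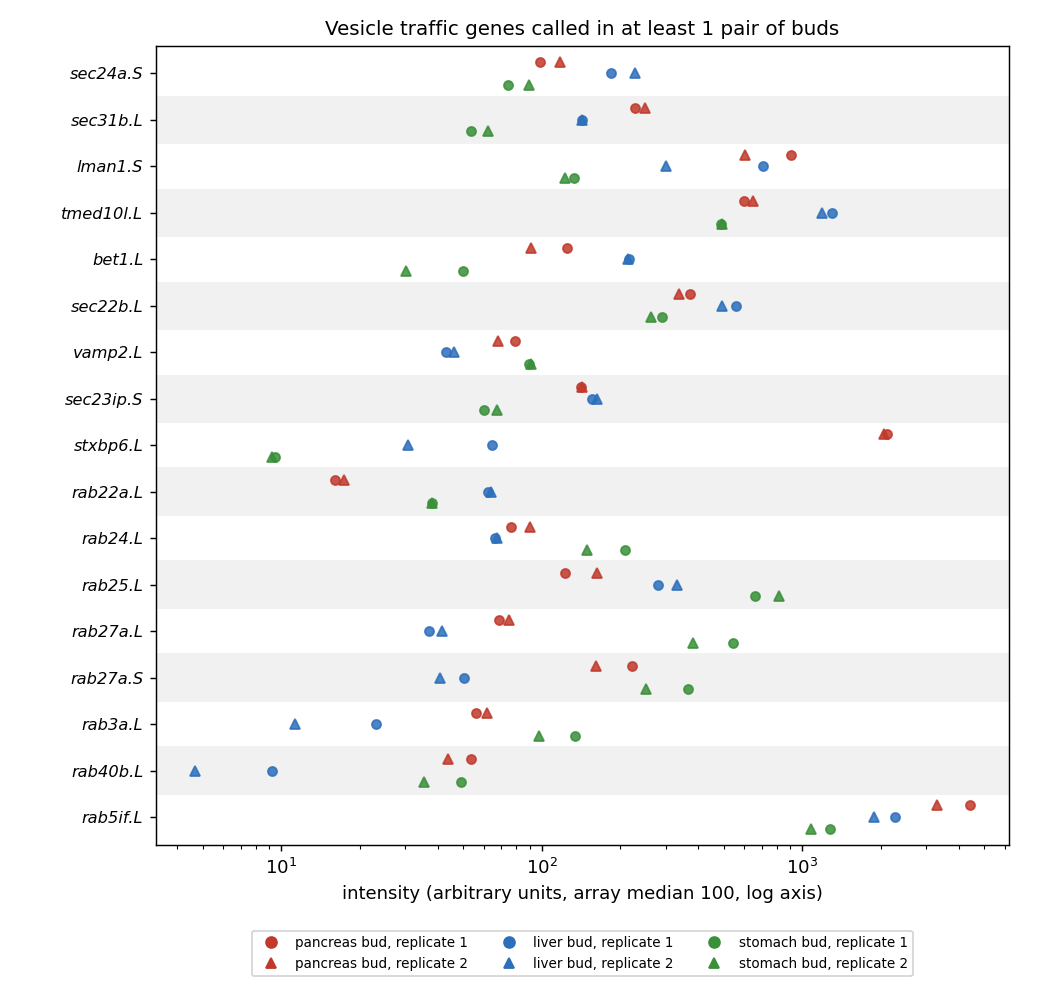
Intensity (arbitrary units, log axis) on each of the 6 arrays for the 17 vesicle traffic genes called in at least 1 pair of buds, ordered by role, with red for pancreas, blue for liver and green for stomach buds, circles for replicate 1 and triangles for replicate 2. The pancreas points of stxbp6.L (2125 and 2059) stand apart from all others of that gene, and the liver points of rab40b.L (9.20 and 4.66) are the lowest shown.

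Tethers and Golgi matrix genes gave no call. None of the 9 passed in any pair, while between 3.27% and 5.84% of all genes were called per direction and pair. So small a group can hold no call at such shares. The median log2 differences of the 9 were 0.02 for pancreas minus liver, 0.15 for pancreas minus stomach and 0.14 for liver minus stomach. TRAPP subunits hold an incoming vesicle and activate Rab proteins at the Golgi. The brightest of them, trappc8.L, had 365 and 414 in pancreas buds, 710 and 562 in liver buds, and 427 and 441 in stomach buds. Its liver arrays were the highest, with an adjusted p of 0.134 against the pancreas and 0.209 against the stomach. For trappc1.L the values were 357 and 446, 320 and 379, and 393.2 and 392.5, and for trappc4.S they were 361 and 390, 348 and 391, and 351 and 321, in pancreas, liver and stomach buds. Between pancreas and liver buds, the arrays of both genes overlapped.

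Rab GTPases, the largest group with 32 genes, held 9 of the 10 called differences in which a gland was below the stomach bud. Among these 9, rab25.L and rab27a.L were counted for both glands, and both comparisons use the same stomach arrays. In liver buds 6 Rab genes were called lower than in stomach buds and none higher, beside 5.36% and 5.84% of all genes. Of the 32, 15 had a higher mean in the liver. In pancreas buds 3 were called lower than in stomach buds and none higher (4.9% and 4.41% of all genes), and against the liver 2 were called higher and 1 lower (3.27% and 3.96%). Yet the median log2 differences were small, at -0.14, -0.14 and -0.08 for pancreas minus liver, pancreas minus stomach and liver minus stomach. Of the 32, 25 were called in no pair, a count for which no share over all genes is given. The moderated F test among the 3 buds called 7 of the 32, beside 14.8% of all genes. Markers of smooth muscle (9 genes) summed to 1548 and 1001 in pancreas buds, 810 and 768 in liver buds, and 12880 and 8958 in stomach buds. Their part in these differences, and that of the gastric epithelium markers given above, was not tested.

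Rab27a brings secretory granules and melanosomes to the plasma membrane, and both of its copies were called. In pancreas buds rab27a.L had 68.8 and 74.9, against 37.0 and 41.4 in liver buds and 542 and 381 in stomach buds. The stomach arrays were several times above the other 4. The liver bud was 11.6 times lower than the stomach bud (log2 -3.54, SE 0.246, limma adjusted p = 0.00551), a call kept in all 6 fits without 1 array. The pancreas bud was 6.33 times lower than the stomach bud (adjusted p = 0.0115; kept in 3 of 6). The other copy, rab27a.S, had 221 and 162 in pancreas buds, 50.4 and 40.7 in liver buds, and 363 and 252 in stomach buds. Here pancreas and stomach arrays did not overlap but were close, and the liver arrays were far below. The liver bud was 6.69 times lower than the stomach bud (log2 -2.74, SE 0.296, adjusted p = 0.0102; kept in 5 of 6), and the pancreas bud was 4.18 times higher than the liver bud (log2 2.06, adjusted p = 0.0254; kept in 2 of 6). Between pancreas and stomach buds its ratio was 1.60 in favour of the stomach (adjusted p = 0.231).

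Rab25 belongs to the Rab11 family and works in the recycling endosomes of epithelial cells. The L copy had 123 and 163 in pancreas buds, 279 and 331 in liver buds, and 662 and 817 in stomach buds. The 3 buds were fully separated, in the order stomach, liver, pancreas. The pancreas bud was 5.19 times lower than the stomach bud (log2 -2.38, SE 0.249, limma adjusted p = 0.0142; kept in 2 of 6 fits without 1 array), and the liver bud was 2.42 times lower (adjusted p = 0.0417; kept in 0 of 6). Its S copy was highest in the liver, at 57.1 and 57.7 in pancreas buds, 184 and 111 in liver buds, and 61.6 and 68.6 in stomach buds, and was not called (lowest adjusted p = 0.0692). Related rab11a.S had 636 and 586 in pancreas buds, 1161 and 856 in liver buds, and 1405 and 982 in stomach buds, with the pancreas lowest and an adjusted p of 0.111 against the stomach.

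Rab3 proteins sit on regulated secretory vesicles, Rab3a on synaptic vesicles and, in mammals, Rab3d on zymogen granules. The gene rab3a.L had 55.9 and 61.8 in pancreas buds, 23.1 and 11.3 in liver buds, and 134 and 98.03 in stomach buds, with no overlap between buds. The liver bud was 7.11 times lower than the stomach bud (log2 -2.83, SE 0.397, limma adjusted p = 0.0189; kept in 4 of 6 fits without 1 array), or 4.01 times with 16 added. The neuron marker sums given above were also higher in stomach than in liver buds. Between pancreas and liver buds these sums were near level, at 956 and 969 against 929 and 1026, while rab3a.L was higher in both pancreas arrays. The marker hand2.S alone gave 329 and 275 of the pancreas sums and 317 and 271 of the liver sums. The part of neurons in the rab3a.L difference was not tested. By comparison rab3d.L had 1254 and 602 in pancreas buds, 175 and 222 in liver buds, and 1018 and 467 in stomach buds. Pancreas and stomach overlapped, and all 4 of those arrays were above both liver arrays. Its pancreas-over-liver fold of 4.41 was not called (log2 2.14, SE 0.523, adjusted p = 0.0853), and its second array read lower than the first in both pancreas and stomach buds.

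The endosomal rab22a.L was lowest in the pancreas. It had 16.1 and 17.4 in pancreas buds, 62.5 and 64.1 in liver buds, and 37.9 and 38.1 in stomach buds, with the 3 buds fully separated and the pairs of arrays nearly equal. The pancreas bud was 3.79 times lower than the liver bud (log2 -1.92, SE 0.180, limma adjusted p = 0.0104; kept in 2 of 6 fits without 1 array), or 2.42 times with 16 added. It was 2.27 times lower than the stomach bud (adjusted p = 0.0285; kept in 0 of 6), a call lost when the prior spread followed the intensity (limma-trend, adjusted p = 0.0588, in a range of 0.0242 to 0.145 over all alternatives).

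Rab40 proteins carry a SOCS box and work in ubiquitin ligases. The gene rab40b.L had 53.5 and 43.5 in pancreas buds, 9.20 and 4.66 in liver buds, and 48.9 and 35.3 in stomach buds. Pancreas and stomach arrays overlapped, while the liver arrays were close to the lower end of the scale. The fold was 7.37 for pancreas over liver (log2 2.88, SE 0.393, limma adjusted p = 0.0228; kept in 0 of 6 fits without 1 array), and the liver bud was 6.35 times lower than the stomach bud (adjusted p = 0.0204; kept in 4 of 6). With 16 added these ratios were 2.82 and 2.53. A second probe set of the gene gave both calls as well, at 39.0 and 27.3 in pancreas buds, 7.12 and 5.12 in liver buds, and 39.6 and 30.6 in stomach buds.

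Rab24, linked in mammals to autophagy, completed the calls among Rab genes. The gene rab24.L had 76.2 and 90.4 in pancreas buds, 66.0 and 67.4 in liver buds, and 209 and 149 in stomach buds. Both stomach arrays were above the other 4. The liver bud was 2.65 times lower than the stomach bud (log2 -1.41, SE 0.246, limma adjusted p = 0.0312; kept in 0 of 6 fits without 1 array). With the replicate block the adjusted p was 0.050005, just over the threshold, in a range of 0.00611 to 0.124 over all alternatives.

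The 3 brightest uncalled Rab probe sets belonged to genes of general transport routes. Rab1a, which acts from ER to Golgi, had 2035 and 2061 for rab1a.L in pancreas buds, 1582 and 1282 in liver buds, and 1361 and 1203 in stomach buds. The pancreas arrays were highest, with an adjusted p of 0.210 against the liver and 0.121 against the stomach; 2 of its 3 other probe sets had a pancreas-liver difference of the opposite sign. For rab10.L, of the Golgi-to-surface route, the arrays held 1562 and 1660, 1365 and 1522, and 1623 and 1558 in pancreas, liver and stomach buds. For rab43.S they held 792 and 923, 1050 and 1188, and 844 and 899, with an adjusted p of 0.316 or more in every pair.

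Of the 6 genes grouped as Rab effectors and regulators, rab5if.L alone was called, higher in pancreas than in stomach buds (4.41% of all genes). Despite its name, its human counterpart is an ER membrane protein that works with TMCO1 in membrane protein insertion. It had 4413 and 3291 in pancreas buds, 2274 and 1894 in liver buds, and 1285 and 1083 in stomach buds. No arrays of different buds overlapped, and the order was pancreas, liver, stomach. The fold for pancreas over stomach was 3.23 (log2 1.69, SE 0.248, limma adjusted p = 0.0264; kept in 2 of 6 fits without 1 array). Its S copy had 79.9 and 112 in pancreas buds, 70.3 and 76.1 in liver buds, and 43.6 and 57.9 in stomach buds, in the same order and uncalled (adjusted p = 0.111 for pancreas against stomach). Both copies of rab3ip, an activator of Rab8, were uncalled: rab3ip.S overlapped in all buds, at 624 and 388, 658 and 528, and 621 and 336, and rab3ip.L had 569 and 449, 482 and 452, and 254 and 369.

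Both chromosome copies were measured for 18 gene names among the members. The ratio of L to S copy on 1 array asks whether the copies share an organ pattern, and a limma F test on its log2 value called 2 of 18 pairs (11.1%), beside 6.1% of the 1017 pairs measured in all. For rab25 the ratio was 2.15 and 2.83 in pancreas buds, 1.52 and 2.98 in liver buds, and 10.8 and 11.9 in stomach buds. The ratio was thus highest in the stomach arrays (F test adjusted p = 0.0495), and the liver-minus-stomach difference of the log2 ratio was -2.41 (SE 0.386, adjusted p = 0.0383). For bet1 the ratio was 0.317 and 0.304 in pancreas buds, 0.706 and 0.665 in liver buds, and 0.256 and 0.182 in stomach buds. Here the liver arrays had the highest ratio (F test adjusted p = 0.0495, liver-minus-stomach difference 1.67, SE 0.255, adjusted p = 0.0344).

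Next in order was rab27a, with a ratio of 0.311 and 0.464 in pancreas buds, 0.733 and 1.02 in liver buds, and 1.49 and 1.51 in stomach buds. The F test did not pass (adjusted p = 0.0525), although the pancreas-minus-stomach difference of the log2 ratio did (-1.98, SE 0.307, adjusted p = 0.0463). The other 15 pairs were not called, and they ranged widely: the sec22a ratio was 0.449 and 0.371 in pancreas buds, 0.937 and 0.797 in liver buds, and 0.862 and 0.793 in stomach buds (F test adjusted p = 0.0829), while the vamp2 ratio lay between 0.658 and 0.782 on all 6 arrays. Under the replicate block and under quantile normalization 1 of the 18 pairs was called, and with any single array left out 0 were, a test with fewer residual degrees of freedom. How far a probe set of 1 copy also binds the other was not measured.

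**Figure D4:**
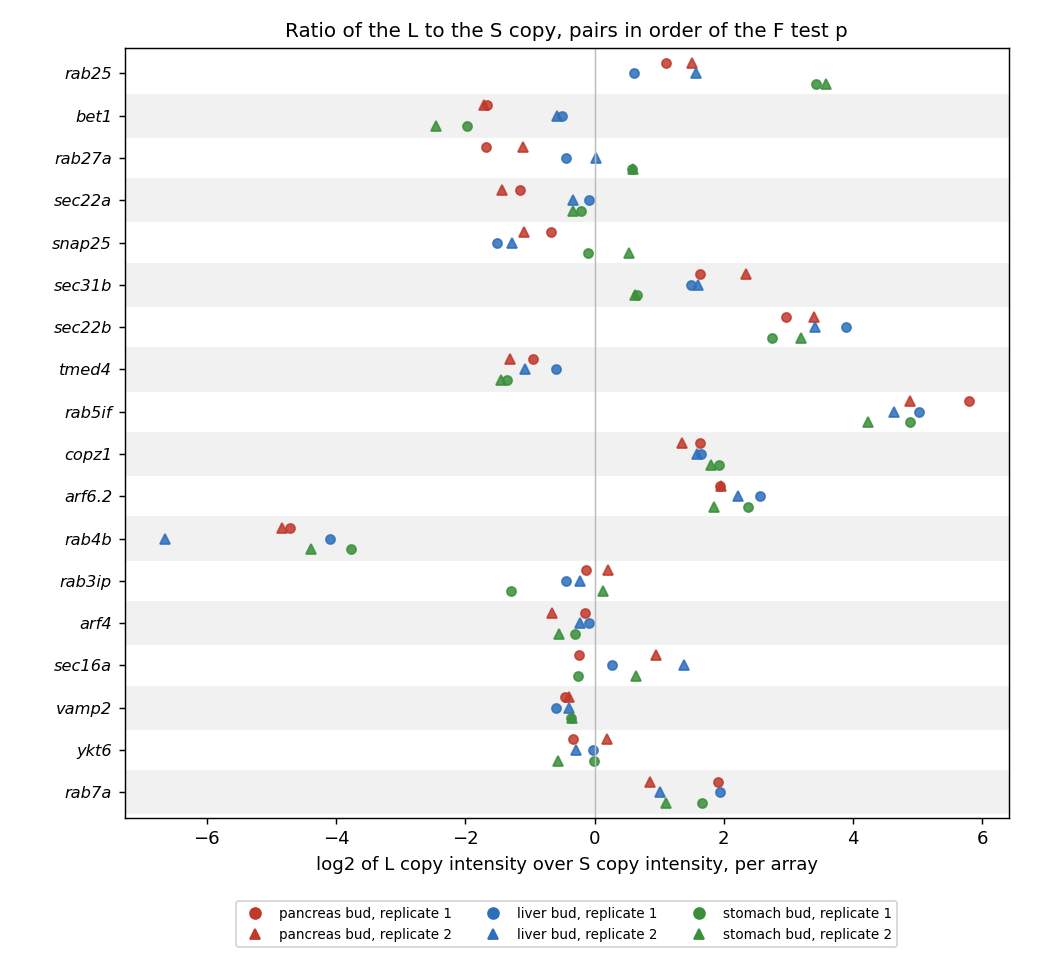
Log2 ratio of the L copy to the S copy on each of the 6 arrays for the 18 gene names measured in both copies, ordered from the lowest F test p at the top, with red for pancreas, blue for liver and green for stomach buds, circles for replicate 1 and triangles for replicate 2. The stomach points of rab25 (10.8 and 11.9 as ratios) and the liver points of bet1 (0.706 and 0.665) lie to the right of the other arrays of their gene.

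Other genes of the pathway, outside the naming rule, were counted in the same way. Of 32 genes for clathrin, its adaptors and post-Golgi sorting, 2 were called lower in pancreas and 1 lower in liver than in stomach buds. Over all genes, 4.9% and 5.36% were called lower in these comparisons. None of the 32 was called higher in either gland than in the stomach or different between the glands. Over all genes, 4.41% were called higher in pancreas and 5.84% higher in liver than in stomach buds. Between the glands, 3.27% of all genes were called higher in the pancreas and 3.96% lower. Close to a call were ap2a2.L and ap2s1.S, adaptor subunits that were 1.84 and 1.94 times higher in liver than in stomach buds (limma adjusted p = 0.0505 and 0.0548). The clathrin light chain gene cltb.L had 437 and 416 in pancreas buds, 313 and 259 in liver buds, and 1045 and 1014 in stomach buds. Both glands were below the stomach, the pancreas by 2.41 times (limma adjusted p = 0.0295) and the liver by 3.62 times (adjusted p = 0.00986). Sortilin, a Golgi-to-endosome sorting receptor, had 74.8 and 99.2 for sort1.S in pancreas buds, 137 and 130 in liver buds, and 480 and 291 in stomach buds. The pancreas was 4.34 times below the stomach (adjusted p = 0.0270), while the liver-stomach difference did not pass (2.80 times, adjusted p = 0.0502).

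Of 23 genes for tethering, fusion and Arf or Rab regulation, 1 was called, higher in pancreas and in liver than in stomach buds (4.41% and 5.84% of all genes). This was arfgap3.S, which encodes a GTPase-activating protein for Arf at the COPI coat, with 624 and 694 in pancreas buds, 595 and 493 in liver buds, and 255 and 260 in stomach buds. It was 2.55 times higher in pancreas than in stomach buds (limma adjusted p = 0.0273) and 2.10 times higher in liver than in stomach buds (adjusted p = 0.0373). Among 31 partners of the early secretory pathway, 1 was called higher in pancreas and 2 higher in liver than in stomach buds. The shares over all genes were again 4.41% and 5.84%. The ER-Golgi intermediate compartment gene ergic2.S had 651 and 829 in pancreas buds, 515 and 567 in liver buds, and 347 and 331 in stomach buds (pancreas over stomach 2.17, adjusted p = 0.0453). The Golgi glycan-processing enzyme gene mgat2.L had 239 and 273, 487 and 475, and 191 and 204 in the same order (liver over stomach 2.43, adjusted p = 0.0205). Its S copy, at 222 and 160, 153 and 126, and 124 and 82.0, was highest in the pancreas and not called. The proprotein convertase gene furin.S had 47.1 and 96.7, 208 and 132, and 30.4 and 12.1 (liver over stomach 8.66, adjusted p = 0.0386). Its L copy had 196 and 149, 619 and 380, and 277 and 170. That copy was not called (liver over stomach 2.23, limma adjusted p = 0.142), and its pancreas mean was the lowest. The median log2 difference of these early partners was -0.02 for pancreas minus liver, 0.37 for pancreas minus stomach and 0.37 for liver minus stomach, beside 0.07, 0.12 and 0.04 over all genes.

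Only 3 of the 12 listed transcription factors of secretory cells were measured. Of these xbp1.L, which in mammals expands the secretory apparatus, had 2614 and 2115 in pancreas buds, 1353 and 1109 in liver buds, and 450 and 282 in stomach buds. It was 6.60 times higher in pancreas than in stomach buds (limma adjusted p = 0.0160) and 3.44 times higher in liver than in stomach buds (adjusted p = 0.0296). Neither creb3.S nor creb3l2.L was called.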

How the data were processed

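Total RNA was hybridised to Affymetrix Xenopus laevis genome arrays, 1 per isolation. The authors deposited linear intensity values for 15611 probe sets; RMA is named without a version per the submitters' processing notes, and the Expressionist program in the series' design text, with no further steps given. Here 120 control probe sets were left out, log2 was taken, and limma 3.58.1 (R 4.3.3) fitted bud means to 15491 probe sets and tested the 3 pairs (3 residual degrees of freedom, prior 2.14), with Benjamini-Hochberg adjustment over all of them and a threshold of 0.05; calls were then read for 7531 genes. The scripts were tested on simulated data. The L to S ratio was fitted over 1017 pairs. Of 116 members, 115 matched the RefSeq gene table by gene ID. No sequence was used. Genes named are all called members and, in each role group, the 3 brightest uncalled ones; further uncalled genes (such as sar1b.L, cope.S, copz1.S, tmed9.S, tmed4.L, stx7.L, rab3d.L, rab11a.S, ap2a2.L, ap2s1.S) were named after their values were seen. The members and lists were chosen with earlier results of these data known. Replicate numbers follow experiment codes shared by the titles of the 3 buds; deviations of same-numbered arrays correlated at 0.173, 0.197 and 0.152, so the numbers were taken as pairs and a replicate block was tried; what the code marks is not stated. With 2 arrays per bud, the smallest p an exact permutation test allows is 0.333. Arrays give no read depth, and their number limits the precision.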

Additional observations from a re-analysis of the deposited data

How the results depend on the processing

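Every called difference kept its direction under all alternatives tried. Calls are counted in the order pancreas-liver higher and lower, pancreas-stomach higher and lower, liver-stomach higher and lower, F test and homeolog pairs, which were 3, 2, 5, 3, 7, 7, 15 and 2. The shares over all genes given above belong to these counts only, and the counts under other settings cannot be set against them. With 16 added the counts were 6, 8, 9, 5, 16, 10, 28 and 5. With probe sets under the 40th percentile left out (95 members tested) they were 7, 7, 15, 5, 18, 7, 28 and 4, and under limma-trend 7, 10, 18, 5, 21, 9, 37 and 3. Quantile normalization, centring, the mean of all probe sets and the replicate block left these counts within 1.5 times, except that homeolog pairs came to 1 under quantile normalization and 1 under the replicate block. Leaving out each array in turn gave ranges of 1 to 2, 0 to 1, 0 to 4, 0 to 2, 0 to 3, 1 to 5 and 3 to 9, and 0 homeolog pairs throughout; these fits have fewer degrees of freedom. A plain one-way ANOVA called 34 members unadjusted and 0 after Benjamini-Hochberg adjustment, and no share over all genes is given beside these counts. Of the 27 called differences 25 to 27 were kept outside the left-out arrays (21 of 21 tested after the filter), and 5 to 12 with 1 array left out. The replicate block ended 2 calls, those of tmed10l.L (pancreas against liver) and rab24.L, and no other. Leaving out an array moved no called fold by more than 1.45 times. Adding 16 moved 6 of 27 by over 1.5 times, those of rab22a.L (pancreas against liver), rab3a.L, both of rab40b.L, and stxbp6.L in both comparisons with the stomach. The cause of the other changes was not tested.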

Other observations

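A pair of probe sets was annotated to both copies of vamp2 and so was counted under neither. The brighter read 74.8 and 51.4 in pancreas buds, 33.9 and 53.5 in liver buds, and 72.2 and 61.3 in stomach buds, and the dimmer read 42.6 and 42.3, 28.8 and 36.5, and 56.1 and 52.8. Neither was called for liver against stomach (limma adjusted p = 0.315 and 0.100), and in both the liver mean was the lowest of the 3 buds.

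Across the 33 further probe sets of the 23 members that had more than 1, the call differed from that of the brightest probe set in 4 of 99 comparisons: once for arf6.2.L, once for vamp2.L and in 2 probe sets for stx19.S. The sign of the difference was the opposite in 34 of the 99, and all 34 were uncalled in both probe sets.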
